A study of Mus musculus with 10 samples.

Results

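Distal wildtype-only regions are open chromatin sites of the embryonic mouse cochlea that lay away from gene ends and had a summit among the strongest peaks of every wildtype library but of no SoxC double knockout library. They numbered 4425 of 76102 open regions on chromosomes 1 to 19. The regions were chosen by measured values: the 50000 strongest ATAC-seq peaks of each library, ranked by the deposited −log10 p, were each cut to the summit with 250 bp to either side, and these windows were merged over libraries. A region was kept where all 3 wildtype libraries and neither of the 2 knockout libraries had a window, which held for 4998 regions, and where its edge lay more than 1 kb from the start or end of every protein-coding gene, which removed 573. The members were 7.26% of the 60936 regions beyond 1 kb, and this share comes from the rule itself.

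All embryos were at E13.5, a stage of mid-gestation, and the cochlear duct epithelium had been freed with dispase and collagenase. The 3 wildtype and 2 SoxC double knockout ATAC-seq libraries are titled as whole organ, while their cell type label and protocol give the epithelium of the duct, lysed whole. The labels of these libraries do not name the deleted genes or the Cre driver; for the single-cell knockout sample of the same series they name Pax2cre and SoxC fl/fl. Sox4 was mapped by CUT&RUN with a guinea pig antibody in 3 replicates of wildtype progenitors sorted for GFP from the p27kip1 reporter. Nothing in the labels says how many embryos were pooled or whether replicates were separate litters. In bulk libraries, fewer cells with an open site and a weaker opening in each cell cannot be told apart.

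ATAC-seq reads where a transposase can enter chromatin, so its peaks mark promoters and, farther from genes, candidate enhancers, the elements that set when and where a gene is transcribed. One developmental gene is often served by several such elements spread through its introns and flanking intergenic stretch. The SoxC proteins Sox4, Sox11 and Sox12 are related HMG-box factors that bind DNA in progenitors and act mainly as activators, and in the cochlea Sox4 and Sox11 have been linked to the formation of hair cells, the sound receptors.

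Sequence was at hand where a member overlapped, by at least 1 base, a promoter of the RefSeq promoter table (GRCm38.p6, 250 bases before to 50 after each start). In 53 members the promoter was that of an inner start, with the member more than 1 kb from the ends of the gene. These are called inner starts under members, also where the start base itself lay outside the member. At Brinp3, for example, only 25 bases were shared. In 28 of the 53 the 300 bases lay wholly inside the member. Below are the 5 of these 28 that belong to genes with 3 or more members, shown because they are the stretches of the gene clusters for which bases were at hand. Capitals mark letters that equal 1 of the 16 motifs searched, on either strand. The intervals are chr3:126998403-126998702 (minus strand) for Ank2, chr10:4709908-4710207 (plus) for Esr1, chr10:90576441-90576740 (plus) for Anks1b, chr15:21111202-21111501 (plus) for Cdh12 and chr16:89818303-89818602 (minus) for Tiam1.
Ank2: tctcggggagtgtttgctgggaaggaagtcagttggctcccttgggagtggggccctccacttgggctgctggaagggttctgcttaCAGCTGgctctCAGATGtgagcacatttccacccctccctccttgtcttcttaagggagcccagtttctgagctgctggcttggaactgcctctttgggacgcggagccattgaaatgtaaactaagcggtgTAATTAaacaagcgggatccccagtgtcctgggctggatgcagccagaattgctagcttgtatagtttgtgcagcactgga
Esr1: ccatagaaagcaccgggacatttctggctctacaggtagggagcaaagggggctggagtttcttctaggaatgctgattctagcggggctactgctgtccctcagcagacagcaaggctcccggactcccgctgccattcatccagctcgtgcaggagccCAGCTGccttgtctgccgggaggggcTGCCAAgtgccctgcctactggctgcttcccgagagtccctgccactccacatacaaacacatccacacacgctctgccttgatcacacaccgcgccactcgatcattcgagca
Anks1b: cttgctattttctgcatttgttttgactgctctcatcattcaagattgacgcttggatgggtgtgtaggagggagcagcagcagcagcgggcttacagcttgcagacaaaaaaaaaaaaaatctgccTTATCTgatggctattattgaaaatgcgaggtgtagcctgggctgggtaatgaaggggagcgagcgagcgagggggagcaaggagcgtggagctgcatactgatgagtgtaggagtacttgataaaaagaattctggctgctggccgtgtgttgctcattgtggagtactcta
Cdh12: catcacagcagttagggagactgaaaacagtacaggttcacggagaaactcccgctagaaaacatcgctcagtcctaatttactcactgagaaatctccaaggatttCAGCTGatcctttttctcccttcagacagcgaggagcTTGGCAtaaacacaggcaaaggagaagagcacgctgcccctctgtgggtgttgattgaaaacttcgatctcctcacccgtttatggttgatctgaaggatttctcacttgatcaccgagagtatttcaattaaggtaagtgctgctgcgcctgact
Tiam1: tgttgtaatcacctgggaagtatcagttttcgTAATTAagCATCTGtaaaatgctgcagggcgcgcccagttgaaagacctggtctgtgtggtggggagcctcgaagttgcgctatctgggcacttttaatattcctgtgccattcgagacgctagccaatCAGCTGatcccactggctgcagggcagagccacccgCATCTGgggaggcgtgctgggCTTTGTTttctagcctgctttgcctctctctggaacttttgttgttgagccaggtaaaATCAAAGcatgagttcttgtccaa

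Of the 5, only Tiam1, which encodes an activator of the GTPase Rac, held the Sox letters AACAAAG, here read from the other strand at base 219. Ank2, Esr1, Cdh12 and Tiam1 each held the E-box letters CAGCTG, and Anks1b held the GATA letters AGATAA alone. The other 4 inner starts wholly inside a member that carry these Sox letters are shown for them: Mcoln3, a lysosomal cation channel gene whose mutation deafens mice, at chr3:146121541-146121840 (plus); Slc6a9, the glycine transporter gene, at chr4:117855297-117855596 (plus); Lrrc38, at chr4:143349500-143349799 (plus); and Tfdp2, a dimer partner of E2F factors, at chr9:96258455-96258754 (plus).
Mcoln3: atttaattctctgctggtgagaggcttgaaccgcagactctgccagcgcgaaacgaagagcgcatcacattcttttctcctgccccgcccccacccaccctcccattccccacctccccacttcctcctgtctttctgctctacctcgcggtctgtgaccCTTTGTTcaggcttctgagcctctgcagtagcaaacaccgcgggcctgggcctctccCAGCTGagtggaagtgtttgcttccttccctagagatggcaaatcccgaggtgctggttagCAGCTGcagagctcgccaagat
Slc6a9: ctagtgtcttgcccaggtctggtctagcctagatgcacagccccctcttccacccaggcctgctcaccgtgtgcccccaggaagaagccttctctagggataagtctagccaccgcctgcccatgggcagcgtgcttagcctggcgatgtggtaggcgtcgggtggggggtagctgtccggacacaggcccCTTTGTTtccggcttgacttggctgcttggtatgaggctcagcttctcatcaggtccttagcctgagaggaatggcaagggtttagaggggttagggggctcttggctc
Lrrc38: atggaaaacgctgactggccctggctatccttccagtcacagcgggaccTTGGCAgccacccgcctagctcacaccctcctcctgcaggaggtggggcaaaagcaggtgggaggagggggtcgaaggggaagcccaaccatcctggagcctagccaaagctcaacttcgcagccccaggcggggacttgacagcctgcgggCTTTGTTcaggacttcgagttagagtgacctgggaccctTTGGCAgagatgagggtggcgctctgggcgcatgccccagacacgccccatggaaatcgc
Tfdp2: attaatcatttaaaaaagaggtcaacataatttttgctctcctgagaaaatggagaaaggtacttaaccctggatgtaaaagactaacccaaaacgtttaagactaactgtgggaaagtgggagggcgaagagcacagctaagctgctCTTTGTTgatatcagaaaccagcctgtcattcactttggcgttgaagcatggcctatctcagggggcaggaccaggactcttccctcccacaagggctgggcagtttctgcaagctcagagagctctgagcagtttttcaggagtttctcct

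The Sox letters AACAAAG were found in 11.3% of the 53 inner starts under members, against 6.26% of all 3465 inner starts and 4.89% of all 20085 coding promoters in the table. The second Sox word, ACAATGG, was found in 1.89%, 3.61% and 2.87% of the same sets. The E-box CAGCTG was held by 28.3%, 18.99% and 15.6%, and the E-box CATCTG by 22.6%, 15.9% and 14.6%. At 53 sequences these shares rest on a few matches each, 6 starts for the first Sox word and 1 for the second. Median GC content was 55.0% under members and 54.3% over all inner starts. All words were read on both strands. Also searched were GGAATGT for TEAD factors and TGANTCA for AP-1. For GATA factors the word was AGATAA and for the sine oculis family TCAGGTTTC. For Grainyhead factors it was AACCGGTT, and for RFX factors GTTGCCATG. The NFI word was TTGGCA and the POU word ATGCAAAT. The Fox word was TGTTTAC and the homeobox word TAATTA. The TCF word was CTTTGAT and the KLF word GGGCGTGG. Of these, NFI was held by 15.1% of the 53, 14.3% of all inner starts and 13.1% of all coding promoters, GATA by 13.2%, 10.4% and 9.57%, and homeobox by 7.55%, 4.50% and 4.48%. AP-1 was held by 1.89%, 7.88% and 7.06% and KLF by 3.77%, 4.42% and 7.20%. POU, sine oculis and Grainyhead words were in 0 of the 53. At the 20 inner starts under knockout-only regions AACAAAG was held by 5.00%, CAGCTG by 35.0% and AP-1 by 10.0%. The 53 were 1.20% of members, the knockout-only regions beyond 1 kb had 0.365% and the regions shared by all 5 libraries 5.34%, with 2.22% over all regions beyond 1 kb. In 15 of the 53, a knockout peak among the 50000 strongest overlapped the region while its summit window lay elsewhere, which was so for 171 of all 4425 members (3.86%).

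The members were weaker sites than the open regions common to both genotypes, and they were reduced rather than lost in the knockout lists. The median deposited fold enrichment of the peak at a member was 9.16, 7.20 and 6.47 in wildtype libraries 1 to 3, and 6.04 and 5.06 in knockout libraries 1 and 2. At the 18105 shared regions beyond 1 kb the medians were 12.6, 9.16 and 7.99 in wildtype and 14.4 and 13.8 in knockout libraries. So the knockout values were the lowest of the 5 at members and the highest of the 5 at shared regions. All 3 wildtype folds exceeded both knockout folds at 2355 members (53.2%), and both knockout folds exceeded all wildtype folds at 117 (2.64%), with a missing peak counted as 0. At shared regions these shares were 3.63% and 50.01%. By −log10 p, wildtype values lay above at 788 members (17.8%) and knockout values at 958 (21.7%), where at shared regions wildtype values lay above at 0.011% and knockout values at 95.6%. The 50000th peak of the wildtype lists had a −log10 p of 19.03, 10.5 and 8.75, and that of the knockout lists 104 and 50.5, so a knockout peak with the same −log10 p as a wildtype peak ranked far lower. These values chose the members and carry no test.

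**Figure D1:**
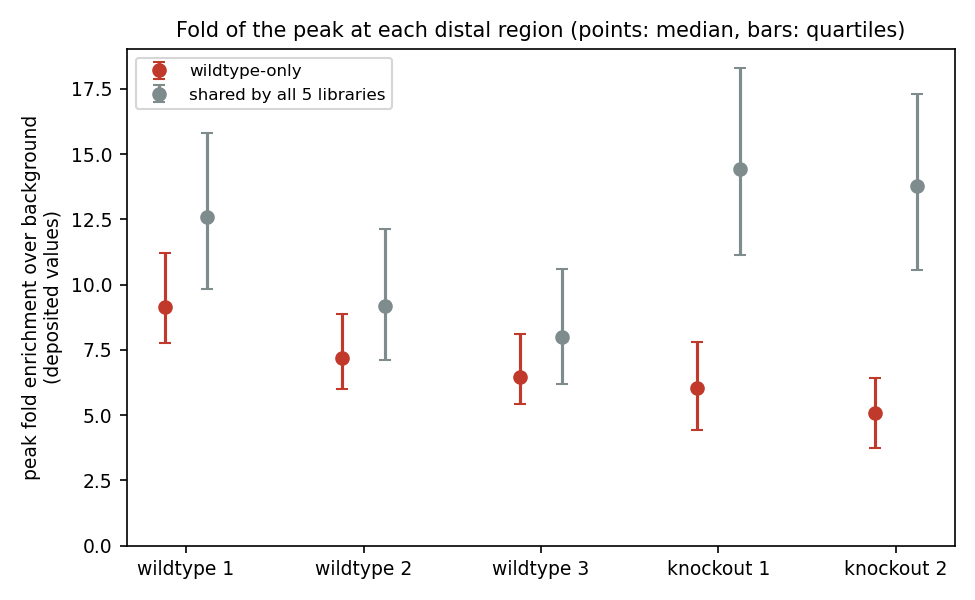
Deposited fold enrichment (y axis, linear) of the strongest peak at each region in the 5 ATAC-seq libraries (x axis), for distal wildtype-only regions (red) and distal regions shared by all 5 libraries (grey). Points are medians and bars run from the lower to the upper quartile. The red medians drop from between 6.47 and 9.16 in wildtype to 6.04 and 5.06 in knockout libraries, and the grey medians are highest in the knockout libraries.

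In the complete lists, 4035 members (91.2%, 95% exact interval 90.3 to 92.0%) had a peak in both knockout libraries, 229 (5.18%) in 1 and 161 (3.64%) in neither. Over all distal regions the shares were 94.5%, 2.95% and 2.57%. The median rank of the knockout peaks was 74364 and 73389, where 1 is the strongest, against 32856, 28836 and 27581 in the wildtype lists. The worst wildtype rank of a member ran from 2593 to 49999 with a median of 38278, and 691 members (15.6%) stayed within 25000 in all wildtype libraries. Just inside the rank limit stood a member near Scrg1 with a worst wildtype rank of 49999, and just outside it a region in Unc79 at 50018. On the knockout side a member near Armc3 had a best rank of 50031 and a region near Mylk4, left out, had 49993. For distance, a member in Gpr158 lay 1003 bp from a gene end and a region in Wfikkn2, left out, 1000 bp.

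Members lay farther from genes than either comparison class. Inside a coding gene were 46.4% of members (95% exact interval 45.0 to 47.9%), 54.2% of the 5477 knockout-only regions and 51.7% of shared regions. More than 100 kb from any coding gene were 24.97% of members (23.7 to 26.3%), 6.77% of knockout-only regions and 11.96% of shared regions. The median distance to the nearest gene end was 57395 bp for members, 16725 bp for knockout-only and 25284 bp for shared regions. These intervals cover counting error only. The position of a region was not used by the rule beyond the 1 kb limit, but the classes compare 1 set of libraries, so there is no replicate test of the difference.

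**Figure D2:**
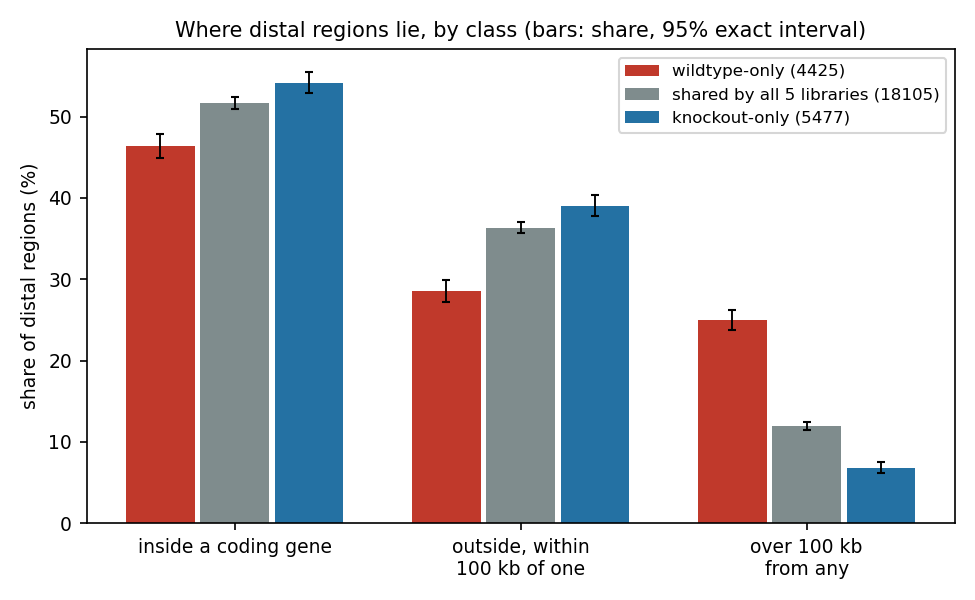
Share of distal regions (y axis, percent) inside a coding gene, outside but within 100 kb, and farther than 100 kb (x axis), for 3 classes of region. Bars are shares with 95% exact binomial intervals; 24.97% of wildtype-only regions are in the farthest group against 6.77% of knockout-only regions.

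Most members had no other member nearby. The median gap between neighbouring members was 270020 bp; gaps of the more numerous other classes are not comparable. Of the gaps, 83 (1.88%) were under 5 kb and 675 (15.3%) under 50 kb. When members less than 50 kb apart were joined, 3213 stood alone, 425 pairs formed, and there were 92 runs of 3, 15 of 4, 4 of 5 and 1 of 6. The run of 6 covered 123499 bp inside Abcc4 (chr14:118563827-118687325), and 1 shared region lay among its members. Runs of 5 lay at Usp25 (chr16:77034714-77150777) and Gpc6 (chr14:116882456-117000876), and 1 each on chromosomes 3 and 6, wholly or partly beyond 100 kb from coding genes. The highest share of distal regions that were members was on chromosome 3, at 9.64%, and chromosomes 19 (3.77%) and 11 (3.99%) had the lowest.

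Each member inside a coding gene was assigned to that gene, or to the shortest of several, and each outside member to the gene with the nearest end within 100 kb. This placed 3320 members at 2241 coding genes, 10.8% of the 20665 on these chromosomes. One member was found at 1595 genes and 2 at 412. The 234 genes with 3 or more were 1.13% of coding genes and held 901 members, 27.1% of those assigned; 129 genes had exactly 3, 53 had 4 and 52 had 5 or more, up to 11. For the knockout-only class 277 of the 20665 genes had 3 or more, and 11 genes were in both sets, 4.70% of the wildtype and 3.97% of the knockout list. The 3.97% is above the 1.13% of all coding genes that were in the wildtype list. The part of gene length in this overlap was not tested. The wildtype-only gene list was one of long genes: its median span was 317800 bp, against 132020 bp for the knockout-only list and 17491 bp for all coding genes. Among the 216 genes longer than 500 kb, 68 (31.5%) had 3 or more members, but among the 15940 genes of up to 50 kb only 16.

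Length, body share and spacing were then taken into account. The expected number for a gene was its body length beyond 1 kb of gene ends times 2.18 members per Mb plus its intergenic stretch times 1.72 per Mb, the rates over all genes. Members closer than 5 kb were counted once. A gene passed with at least 3 members after this joining and at least 2 times its expected number. Of the 234 genes, 181 passed (0.876% of coding genes) and 53 did not, 16 because joining left fewer than 3 and 37 because of the expected number alone. The median span was 276900 bp for genes that passed and 931530 bp for those that did not. Of the genes with 3 or more members, 91 of the 94 between 200 and 500 kb passed, as did 30 of the 68 longer than 500 kb. The mean expected number over all genes was 0.797 between 200 and 500 kb and 2.02 above 500 kb. At 0.797 expected, 3 members alone met the ratio. The expected number could thus hardly fail a listed gene of up to 500 kb, and passing says little about length there. The median ratio of observed to expected was 4.33 over genes that passed. All members were inside the gene at 81 of the 181 and none at 13, and 120 of the 181 had no knockout-only region. Only 3770 of all 20665 coding genes, with a median span of 17491 bp, had a knockout-only region. Having none was thus less common among the 181 than over all coding genes. No test was made of these counts, since the genes were picked for them.

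**Figure D3:**
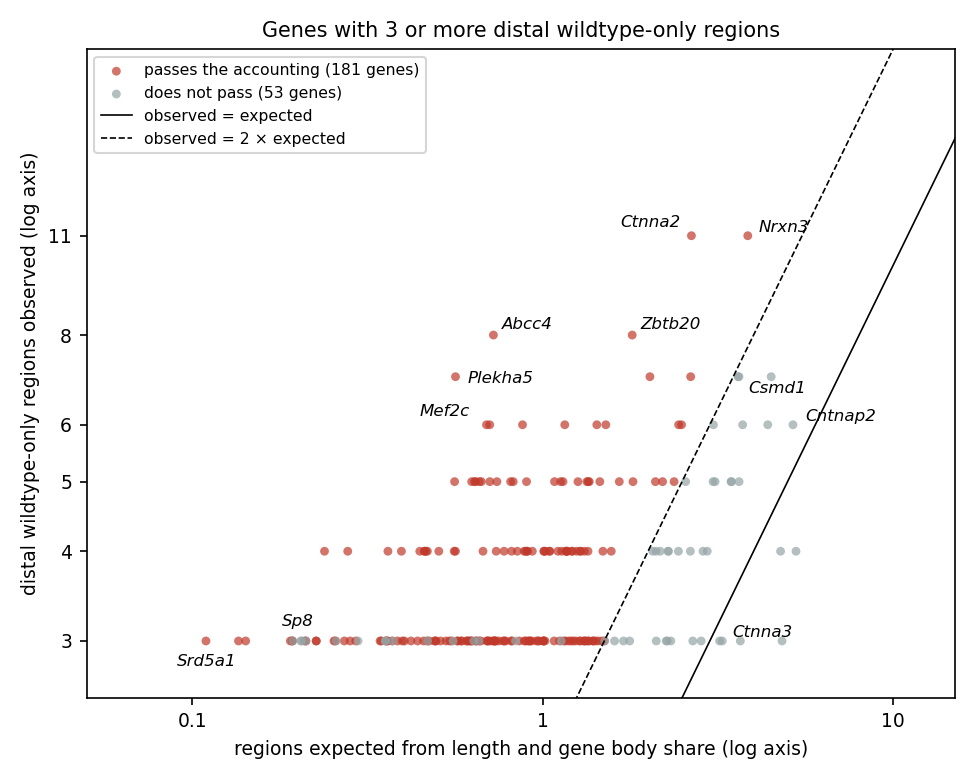
Number of distal wildtype-only regions (y axis, log) against the number expected from length and gene body share (x axis, log), for the 234 genes with 3 or more. Red genes pass the accounting and grey ones do not; grey points left of the dashed line fall below 3 after regions closer than 5 kb are joined. Ctnna2 and Nrxn3 have 11 each, and Plekha5 and Abcc4 lie farthest to the left among genes with 7 or more.

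Ctnna2 and Nrxn3 had the most members, ahead of Abcc4 and Zbtb20. Ctnna2, which encodes the alpha-N-catenin that ties cadherins to actin in neurons, had 11 members, all inside its body of 1098179 bp, where 2.66 were expected. Its strongest member (chr6:77742862-77743402) had wildtype folds of 14.7, 12.6 and 11.1 and knockout folds of 7.79 and 8.34, and windows of Sox4 replicates 2 and 3 overlapped it. All 3 wildtype values there lay above both knockout values. Another Ctnna2 member (chr6:77108550-77109128) had folds of 7.35, 8.26 and 5.59 against 2.26 and 2.38, so the groups did not overlap at either site. Nrxn3, a presynaptic adhesion receptor, also had 11, with 3.85 expected. Of the 29 neurexin, contactin and other synaptic adhesion genes on the list used here, 17 had a member, 10 had 3 or more and 4 passed. Their members numbered 63 where 52.8 were expected, and their knockout-only regions 25 where 78.0 were expected. The 6 catenins had 19 members, with 8.87 expected, all from Ctnna2, Ctnnd2 (5) and Ctnna3 (3, with 3.26 expected). The 22 cadherin genes listed, Cdh13, Cdh17 and Cdh23 among them, had 18 members against 18.01 expected, and Cdh2 was the only one to pass.

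Several of the longest genes had a number of members near or below that expected from their length. Cntnap2 had 6 where 5.18 were expected, Lsamp 4 where 4.78, Ptprd 4 where 5.29 and Ctnna3 3 where 3.26. Macrod2, Csmd1 and Robo2, each with 7, reached 1.56, 1.94 and 1.93 times the expected number and did not pass. Robo2 and Robo1, guidance receptors for Slit proteins, had 2 and 10 shared regions. Of the 26 axon guidance genes 20 had a member, and Sema3a, Sema3d and Sema5a, with 3 each, were the 3 that passed. Under the 4 other ways of choosing peaks given below, Sema3d had 3 or more members under 0, and Sema3a and Sema5a under 3 each. The 25 glutamate and GABA receptor genes had 20 members against 28.3 expected, and Grik1, a kainate receptor with 4, was the only one to pass.

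Abcc4 and Plekha5 had many members for their size. Abcc4, which encodes a transporter that exports cyclic nucleotides, spans 225165 bp and had 8 members where 0.724 were expected, a ratio of 11.1. Its strongest member (chr14:118426214-118426744, outside the gene) had folds of 12.6, 11.2 and 9.53 in wildtype and 6.88 and 4.73 in knockout libraries, without overlap. At another (chr14:118436739-118437263) the folds were 11.1, 8.28 and 7.98 against 8.83 and 8.56, so the groups overlapped, and its knockout peaks ranked 32910 and 31229. Plekha5, a pleckstrin homology domain gene, had 7 members with 0.564 expected, a ratio of 12.4. At its member chr6:140524045-140524554 the knockout folds of 11.4 and 10.2 were above the wildtype folds of 8.49, 7.53 and 6.65, and the knockout peak had its summit elsewhere. At the Plekha5 member chr6:140477925-140478447 the order was the reverse, with 11.5, 11.5 and 8.90 in wildtype and 7.01 and 5.98 in knockout. When members overlapped by a knockout peak among the 50000 strongest were left out, Plekha5 kept 6 and Abcc4 7 members.

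**Figure D4:**
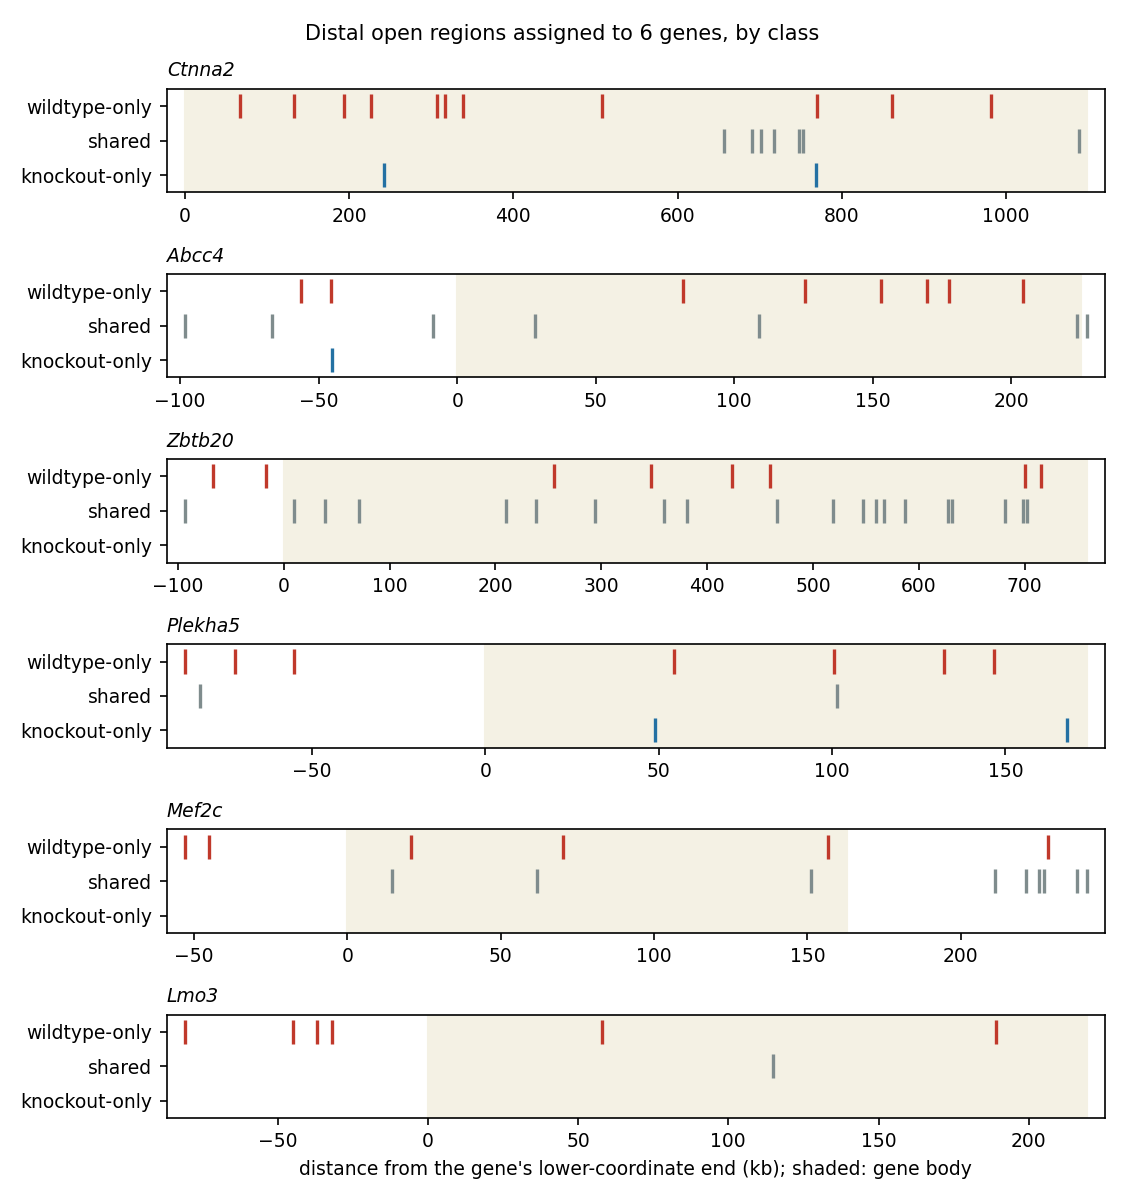
Positions of distal regions assigned to 6 genes, as distance in kb from the gene's lower-coordinate end (x axis), with the gene body shaded and 1 row of ticks for each class. Wildtype-only ticks number 11 at Ctnna2, 8 at Abcc4 and Zbtb20, 7 at Plekha5 and 6 at Mef2c and Lmo3; shared ticks number 20 at Zbtb20 and 1 at Lmo3.

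Several transcription factor genes had members in number. Of the 47 patterning factors listed, 30 had a member, 7 had 3 or more and 6 passed; they had 64 members where 38.0 were expected, and 39 knockout-only regions where 57.8 were expected. Zbtb20, a zinc finger repressor outside this list, had 8 members among 20 shared regions. Its strongest member (chr16:43591052-43591565) had folds of 12.3, 11.9 and 9.29 against 6.54 and 3.84. Mef2c, a MADS-box activator also outside it, had 6 members where 0.692 were expected, 3 of them outside the gene. At the Mef2c member chr13:83458643-83459175 the wildtype folds were 11.8, 12.3 and 11.2 and the knockout folds 3.42 and 4.45, without overlap. At chr13:83660654-83661159, inside Mef2c, folds of 7.59, 6.03 and 4.13 overlapped those of 9.65 and 6.11. Nfia had 6 members, 3 of them within 14498 bp, Mecom had 5, Bach2 had 4 and Gli3, an effector of Hedgehog signalling, had 3. Under the 4 other ways of choosing peaks given below, Bach2 had 3 or more members under 0, Nfia under 2, and Mecom and Gli3 under 3 each. At the Gli3 member chr13:15714267-15714797 the knockout folds of 15.6 and 11.1 were above the wildtype folds of 8.99, 8.84 and 5.36, and without it Gli3 has 2. Nr2f1, a nuclear receptor of ear patterning, had 3 within 31331 bp, but 2 were closer than 5 kb and it did not pass.

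Lmo3, a LIM-only transcriptional co-factor, had 6 members (5 after joining) where 0.707 were expected and 1 shared region. Its strongest member (chr6:138551636-138552160) had wildtype folds of 21.4, 19.7 and 17.7 and knockout folds of 10.3 and 6.00. The Lmo3 member chr6:138317959-138318483 had folds of 11.7, 9.15 and 7.10 in the wildtype libraries and no peak in either knockout list. Of all 161 members with no knockout peak, 28 were at genes with 3 or more members. They were 3.11% of the 901 members at such genes, against 3.77% of the 3524 members elsewhere. The strongest of the 28 lay 58225 bp from 4930583I09Rik (chr17:64894296-64894825), with folds of 21.5, 12.7 and 10.7.

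Genes with a small expected number led the list by ratio. This follows from the rule, since every listed gene has at least 3 members. Over all 15940 genes of up to 50 kb the mean was 0.0600 members where 0.0768 were expected. Srd5a1, the steroid 5-alpha-reductase gene, had 3 members where 0.109 were expected, a ratio of 27.4, and no other distal region. At its member chr13:69600074-69600674 the folds were 9.16, 7.92 and 5.36 in wildtype and 7.57 and 4.66 in knockout, which overlap. Tgif1, a homeobox repressor, had 3 where 0.136 were expected, but 1 of these (chr17:70873218-70873762) had higher folds in the knockout, 9.41 and 10.3, than in the wildtype, 5.96, 5.15 and 4.74, and left out it leaves 2. Lzts1 reached a ratio of 21.1 and Sp8, a zinc finger factor, 15.7, and Lancl1, Arl4a, Atp6v1g3, Aim2, Mtmr7, Tas2r119 and Nfkbiz lay between 13.3 and 15.5. Peaks were also chosen in 4 other ways: the 25000 or 100000 strongest, the strongest 30%, and ranking by fold. Tgif1, Lzts1, Sp8, Arl4a and Mtmr7 had 3 or more members under 0 of these 4. Srd5a1, Aim2 and Tas2r119 had them under 1, Nfkbiz under 2, and Lancl1 and Atp6v1g3 under 3. Svil, with 3 members inside 4733 bp on chromosome 18, had the tightest group, and it counted as 1 after joining. Rngtt (8845 bp) and Cntn5 (9302 bp) came next and did not pass.

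Genes of the sensory lineage mostly had few members each. A member was found at 8 of 12 prosensory, 5 of 12 hair cell and 4 of 8 supporting cell genes. Over all coding genes the share was 10.8%, without regard to gene length. Having a member was not particular to these lists. It held for 63.8% of patterning factors, 76.9% of axon guidance genes and 3 of 7 mesenchymal genes, but for 0 neuron, glia or epithelial genes. The 12 prosensory genes had 10 members where 3.04 were expected, and 1 knockout-only region where 4.98 were expected. Eya1, the co-activator needed for ear formation, had 3 members and passed, and Sox2, Jag1, Gata3, Lfng, Hey1, Hey2 and Cdkn1b had 1 each. The Eya1 member chr1:14202198-14202712 had folds of 12.4, 13.52 and 9.60 in wildtype and 4.56 and 5.31 in knockout libraries, without overlap. Eya1 had 3 or more members under 1 of the 4 other ways of choosing peaks tried: 6 with ranking by fold, but 2 with the 25000 strongest, 0 with the 100000 strongest and 1 with the strongest 30%. A second Eya1 member (chr1:14285734-14286322) had 10.8, 8.80 and 6.45 against 3.92 and 5.65 and a window of Sox4 replicate 1. The 11 medial floor genes, which mark the medial part of the duct floor, had 14 members where 3.27 were expected; Lmo3 and Otogl, a tectorial membrane gene, passed. The 12 hair cell genes had 14 where 6.995 were expected, 6 of them in the tip-link gene Pcdh15, which did not pass, and Atoh1, the hair cell master regulator, had 1. The 8 supporting cell genes had 6 where 1.92 were expected. The SoxC genes had 4 where 0.730 were expected: 2 near Sox4 that joined into 1, and 1 each at Sox11 and Sox12. The 36 Fgf, BMP, Wnt and Notch genes had 19 where 12.3 were expected, with no gene above 2.

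Of the remaining lists, the 10 protocadherins outside the gene arrays had 14 members where 9.47 were expected. The 11 receptor protein tyrosine phosphatases had 14 where 15.6 were expected, and no gene of either list passed. The others, among them an epithelial list and one of roof and lateral wall genes, had at most 4 members each. The 9 neuron and 4 glia genes had 0 members where 3.14 and 0.389 were expected. They had 7 and 1 knockout-only regions where 4.85 and 0.638 were expected. The 5 epithelial genes had 0 where 0.485 were expected, and 13 housekeeping genes had 1 where 0.711 were expected. Roof and lateral wall genes had 2 where 2.28 were expected, and mesenchymal genes 3 where 2.16. Blood and endothelial genes had 4 where 1.54 were expected, 3 of them at Ptprc, the leukocyte gene for CD45. Ptprc had 3 or more members under 0 of the 4 other ways of choosing peaks. The part of any cell type, or of cell type shares, in these counts was not tested.

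Promoters of the clustered genes were mostly open in both genotypes. Of the 176 genes with 3 or more members and a promoter in the table, 107 (60.8%) had a promoter window in all 5 libraries, against 59.0% of genes with 1 or 2 members and 51.6% of all coding genes. In none were 32 (18.2%), against 26.4% and 39.1%. Wildtype libraries alone had one at 15 (8.52%) and knockout libraries alone at 0; these shares were 4.83% and 0.457% for genes with 1 or 2 members and 1.37% and 0.681% over all coding genes. In 8 of the 15 a member itself overlapped the promoter of an inner start, so these share the values that chose the members. The other 7 were 4930583I09Rik, Basp1, Chrm3, Dgki, Fat3, Myo16 and Thsd7b, named after their values were seen. Zbtb20, Lmo3, Nfia and Sp8 were among the 32 with none.

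Sox4 occupancy, measured in separate libraries, was low at the members and lay between the 2 comparison classes. A window of the 20000 strongest Sox4 peaks overlapped 2.46%, 3.32% and 2.64% of members in replicates 1 to 3. The knockout-only regions had 1.21%, 1.04% and 1.48%, and the shared regions 4.04%, 4.98% and 4.61%. Over all distal regions the shares were 2.26%, 2.62% and 2.55%, close to those of the members. Members exceeded knockout-only regions by 1.57 ± 0.62 percentage points (SD, n = 3), in 3 of 3 replicates, with p = 0.25 by a two-sided exact sign-flip permutation test. They were below shared regions by a difference of -1.73 ± 0.205 percentage points (SD, n = 3), also in 3 of 3 replicates, with p = 0.25 by the same exact permutation test. With 3 replicates 0.25 is the smallest p this test can give. Shared regions were also the stronger ATAC-seq peaks, and the part of peak strength in this order was not tested.

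**Figure D5:**
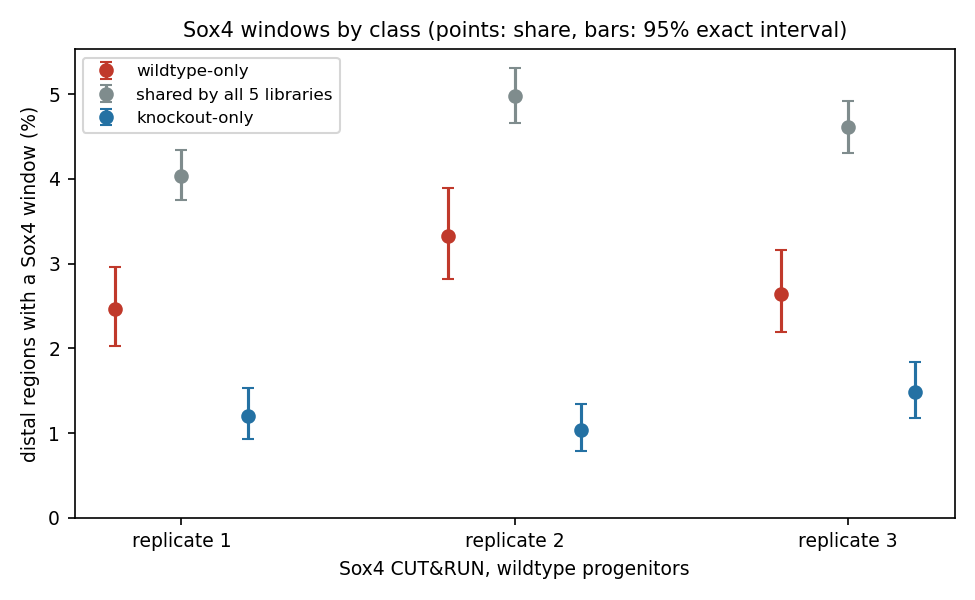
Share of distal regions overlapped by a Sox4 window (y axis, percent) in each Sox4 CUT&RUN replicate (x axis), for 3 classes of region. Points are shares and bars 95% exact binomial intervals; wildtype-only regions (2.46%, 3.32% and 2.64%) lie between shared and knockout-only regions in every replicate.

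At least 2 Sox4 replicates had a window at 39 members (0.881%), 7 knockout-only regions and 385 shared regions, with 0.817% over all distal regions. All 3 replicates had one at 8 members. Of the 39, 7 were overlapped by a knockout peak among the 50000 strongest, which leaves 32. The Diaph3 member (chr14:86759454-86759973), in a formin gene, was covered in all 3 replicates and had folds of 11.8, 10.4 and 9.17 in wildtype and 5.13 and 4.09 in knockout libraries. The Foxn3 member (chr12:99239616-99240145) was covered in replicates 1 and 2 and had folds of 14.7, 10.4 and 9.01 against 4.21 and 3.15. An Ank2 member (chr3:127356841-127357354) was covered in replicates 1 and 3, with 15.2, 12.9 and 9.74 in wildtype, 3.86 in knockout library 1 and no peak in knockout library 2. These 3 sites were picked as examples after their values were seen. Over the 39, wildtype folds lay above both knockout folds at 17, knockout folds lay above at 3, the groups overlapped at 17, and 2 lacked a peak in a knockout list. Of the 8 members covered in all 3 replicates, these counts were 4, 1, 3 and 0. At Sema4c, the 1 with knockout folds above, they were 4.88 and 5.82 and the wildtype folds 4.70, 4.05 and 3.20. Over all 4425 members, wildtype folds lay above at 2355 (53.2%) and knockout folds at 117 (2.64%), with a missing peak counted as 0. So the 39 did not have wildtype folds above more often than members at large. Members at clustered genes did not have the higher Sox4 share: the 901 members at genes with 3 or more had a window at 2.33%, 2.55% and 2.11%, and the other 3524 at 2.497%, 3.52% and 2.78%. Of the 234 genes, 48 had a member with a window of any replicate.

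The gene list depended on the rank limit. With the 25000 strongest peaks 97 genes had 3 or more members and 51 of them were among the 234; with the 100000 strongest 354 did, 104 of them among the 234. Ranking by fold gave 223 genes, of which 157 were among the 234. Only 22 genes had 3 or more under these 3 choices and also with the strongest 30% of each list, and 14 of the 22 passed the accounting, among them Abcc4, Ank2, Arhgap26, Cdk14, Ctnna2, Ctnnd2, Dock4, Fer, Foxn3, Gpc6, Klf12, Nav3 and Nrxn3. Zbtb20 fell to 2 with the 30% lists, Mef2c to 2 and Lmo3 to 1 with the 25000 strongest, and Sp8, Srd5a1 and Otogl to 0. When members overlapped by any of the 100000 strongest knockout peaks were dropped, 869 members and 9 genes remained, among them Ctnna2 (5 members), Csmd1 (4), and Atp6v1g3, Cntn3, Ctnna3, Fam155a, Tenm2 and Tmeff2 (3 each). Of these, Csmd1, Ctnna3 and Tenm2 had not passed the length accounting among the 181. Requiring 2 wildtype libraries in place of 3 raised the count, to 451 genes without wildtype library 1 and 366 without wildtype library 3. With any knockout peak as the bar, 161 members remained and 0 genes had 3.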

How the data were processed

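Peak lists were deposited for 5 ATAC-seq libraries (166874 to 299829 rows) and 3 Sox4 CUT&RUN libraries. The submitters' processing notes name STAR, MACS2, deepTools and UMI-tools without versions, and builds mm10 and GRCm38. Per the file layout that the authors deposited, column 7 is a fold enrichment (ratio) over background and columns 8 and 9 are −log10 p and q values; the read depth is unknown. The wildtype and knockout lists were called to different lengths, so genotype and calling cannot be told apart.

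Rows overlapping within a library were merged, with the strongest summit kept, on autosomes only. Gene ends came from RefSeq (GRCm38.p6). Exon positions were not used here, so the gene body stands for introns. A genome sequence was not used here, so the planned sequence features were computed at table promoters alone. The single-cell matrices were not used here. Shares carry 95% exact (Clopper-Pearson) intervals. Analyses used Python 3.11.15, numpy 2.4.6, pandas 2.3.3, scipy 1.17.1 and matplotlib 3.10.9, and the functions were tested on simulated peaks.

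The members, lists and rules were chosen with earlier results of these data known. Named genes were the 15 with most members, the 12 with the highest ratio among those that passed, every listed gene with 3 or more, and the 5 with the tightest 3 members; others are named where a sentence says why, or from list counts. Some genes that the rule names are not reported here.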

Additional observations from a re-analysis of the deposited data

How the results depend on the processing

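No paired analysis was possible because no result comes from a test between wildtype and knockout libraries. The sequence features of the regions were not run, since a genome was not used here. The number of members was 2463 with the 25000 strongest peaks, 2803 with the strongest 30% of each list, 869 without overlap with the 100000 strongest knockout peaks and 161 without overlap with any knockout peak; other settings kept it within 1.5 times 4425. Leaving out 1 library gave 5263 to 6558 members, 322 to 451 genes with 3 or more and 225 to 312 genes that passed; the rule is then looser, so all 234 genes are kept by construction, and 164 to 169 of the 181 still passed. The change passed 1.5 times without wildtype library 1 (451 and 312 genes) and without wildtype library 3 (366 genes with 3 or more). Genes with 3 or more numbered 97 (25000 strongest), 354 (100000 strongest), 116 (30%), 9 and 0 (the knockout overlap settings), 385 (limit of 500 kb) and 105 (4 or more regions). Genes that passed numbered 83, 86, 9 and 0 under the 25000, 30% and knockout overlap settings, 119 inside the body alone, 294 with the 500 kb limit and 71 with 4 or more regions; counting once the regions closer than 20 kb gave 135, and the expected number from all distal open regions 189. The fewer peaks or stricter bars by construction leave fewer regions; beyond that the cause was not tested. A knockout summit inside the region was found in both lists at 85.1% of members, and with noncoding genes added 56.0% lay inside a gene. The Sox4 difference was 1.01 to 3.87 percentage points against knockout-only regions under the other Sox4 choices, 1.21 to 1.77 without 1 replicate, and -1.73 against shared regions, which is another comparison. Chosen after seeing the data were the distance from the region's midpoint, which gave 4492 members and 181 genes that passed, and leaving out members overlapped by a knockout peak among the 50000 strongest, which gave 4254 members, 178 genes that passed and a Sox4 difference of 1.36 percentage points.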

Other observations

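The 1105 members more than 100 kb from any coding gene were assigned to no gene above. Their nearest coding genes include Adgrl2, an adhesion receptor, and Bcl11a, a zinc finger factor, with 9 members each, and Efnb2, Got2, Myc and Pik3c3 with 8 each. The 8 nearest to Myc lay 213603 to 748219 bp from it, and those nearest to Bcl11a 144631 to 883608 bp. Cited2, Map3k7, Ttll7 and Zeb2 had 6 each, and Nr2f2, Cdh11, Cdh6 and Acvr2a 5 each. The farthest member lay 1985981 bp from a coding gene end, next to Pik3c3. More than 500 kb away lay 254 of the 4425 members and 30 of the 5477 knockout-only regions. The same held for 341 of the 18105 shared regions and 1744 of all 60936 distal regions. Nearness at such distances does not say which gene a region serves.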
